A study of Mus musculus with 14 samples.

Results

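The 9 genes described here encode the pore-forming subunits of the AMPA and kainate types of ionotropic glutamate receptor in the mouse. They are the 4 AMPA receptor subunit genes Gria1 to Gria4 and the 5 kainate receptor subunit genes Grik1 to Grik5, taken by name. They are 9 of the 41381 genes in the deposited table. All 9 had a TPM (the transcript abundance that RSEM gives, already divided by transcript length and scaled to the same total in each library) of at least 1 in at least 4 libraries, and so were among the 17325 genes tested.

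Levels came from RNA sequencing (RNA-seq) of granule neuron progenitors (GNPs) freshly isolated from the cerebella of pups at postnatal day 7 (P7). The 3 groups differ in Chd7, a chromatin remodeller of the CHD family. The mice carry floxed Chd7 (WT [Chd7 f/f] in the study's text), and the deleting Cre is Atoh1-Cre, which is active in the granule cell lineage and does not target Purkinje cells. WT (n = 5) is Atoh1-Cre negative, Het (n = 5) is Atoh1-Cre::Chd7 f/+ and Hom (n = 4) is Atoh1-Cre::Chd7 f/f. The strain is given as C56Bl6/J in the labels of the earlier samples, C57BL/6 in those of the later ones and C57BL/6N in the study's methods, and the sources do not say whether pups were pooled. Sequencing ran in 2 batches. Batch 1 comprised WT 1 to 3 and Het 1 to 3 together with Hom 1 and 2, and batch 2 the other 6 libraries.

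Several facts of the whole series touch these genes. Chd7 itself did not follow the labels: its TPM was 172 to 185 in the batch 1 libraries labelled Hom against 121 to 152 in those labelled WT, and 126 to 150 against 203 to 272 in batch 2. A gene-level TPM also counts reads outside the floxed part, so it does not check the deletion, and WT, Het and Hom below mean the libraries so labelled. Progenitor markers were present in every library, with a summed TPM of 2482 to 3643 over 10 genes. The libraries WT 1 to 3 and Het 3 stood apart, since their Purkinje cell markers summed to 55.4 to 104 TPM against 20.7 to 39.9 elsewhere, and their endothelial and mural markers to 21.0 to 35.0 against 104 to 399. Of the Purkinje markers, Pcp2 and Skor2 were at 0 in some of the other libraries. Several results are therefore also given without these 4 libraries. That fit keeps only WT 4 and WT 5 of the WT libraries, both in batch 2, and no WT library of batch 1. It thus holds fewer libraries, and the reason for a call lost in it was not tested.

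AMPA receptors are tetramers of Gria subunits that open rapidly when glutamate binds and carry most fast excitatory transmission. Kainate receptors are built likewise from Grik subunits, act before and after the synapse, and need at least one of Grik1, Grik2 or Grik3 to form a channel, to which Grik4 or Grik5 add high affinity for kainate. Granule neurons are known to use mainly Gria2 and Gria4 among the AMPA subunits and Grik2 with Grik5 among the kainate subunits. Bergmann glia, which lie beside them, use Gria1 and Gria4.

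Ion selectivity in both families depends in part on 1 codon of the pore, the Q/R site. The reference sequence around it is shown because editing at this codon is what sets Gria2 apart from the other AMPA subunits. Each line gives 27 bases of the coding strand from GENCODE M21 (GRCm38), 5′ to 3′, with the Q/R codon in capitals.
Gria1: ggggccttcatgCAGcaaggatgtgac
Gria2: ggtgcctttatgCAGcaaggatgcgat
Gria3: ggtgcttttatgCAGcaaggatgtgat
Gria4: ggtgcctttatgCAAcaaggatgtgac
Grik1: ggagctctcatgCAGcaaggatcggag
Grik2: ggagctctcatgCAGcaaggttctgag
Grik3: ggctccctgatgCAGcaaggatctgaa
Grik4: ggaggcttcatgCAGcaaggctccact
Grik5: ggtggcttcatgCAGcagggctcggag
All 9 genes carry a glutamine codon at this site in the genome, CAA in Gria4 and CAG in the other 8. Gria2 and Gria3 shared 25 of 27 bases and so did Grik1 and Grik2, whereas Gria4 and Grik4 shared 17. In mature Gria2, and in part of Grik1 and Grik2, ADAR enzymes edit the adenosine of this codon, which then reads as arginine. Edited Gria2 makes the AMPA channels that hold it nearly impermeable to calcium. TPM values hold no base calls, so editing was not measured here. The Gria2 window lies at chr3:80706899-80706925 on the minus strand in exon 11, and the Gria4 window at chr9:4464125-4464151 on the minus strand in exon 12. In Grik2 the codon lies at chr10:49244329-49244331, minus strand, at exon 13, and the window runs on into exon 14.

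In WT, 4 of the 9 genes, Gria2, Grik2, Gria4 and Grik5, held most of the summed level. Gria2 was highest at 107 ± 21.9 TPM (SD, n = 5), followed by Grik2 at 90.9 ± 7.35, Gria4 at 64.0 ± 8.31 and Grik5 at 51.3 ± 8.81. Gria1 at 24.6 ± 12.5 and Gria3 at 12.3 ± 1.71 came next, and Grik3, Grik4 and Grik1 were lowest at 8.76 ± 2.02, 4.18 ± 0.999 and 4.16 ± 0.807. Of the 8 steps in this order, 6 joined genes whose WT ranges overlapped. Only the steps from Grik2 to Gria4 and from Grik3 to Grik4 separated all 5 libraries. Gria2 exceeded Grik2 in 3 of 5 WT libraries, and Gria4 exceeded Grik5 in 3 of 5.

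**Figure D1:**
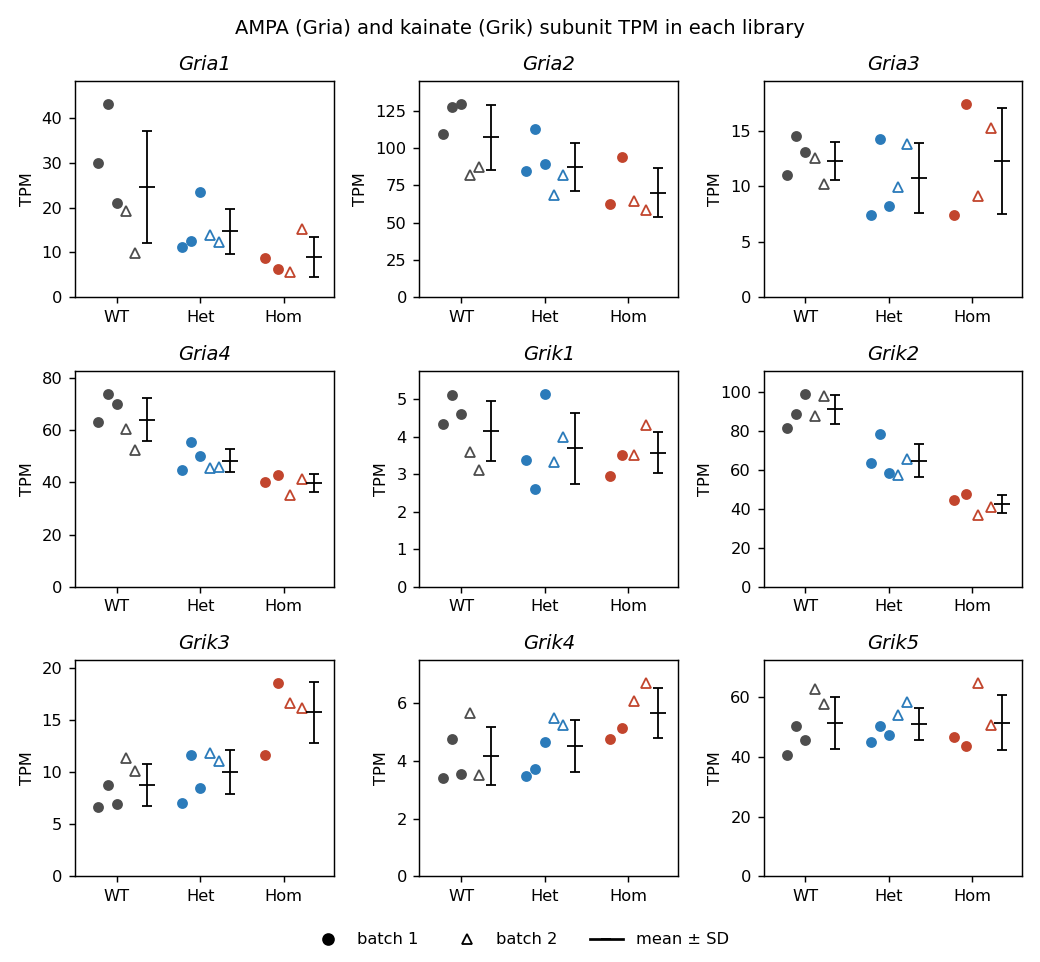
TPM of each AMPA (Gria) and kainate (Grik) subunit gene in every library, by genotype label, with filled circles for batch 1, open triangles for batch 2 and bars for the mean ± SD (n = 5, 5 and 4). Grik2 lies between 36.8 and 47.3 in Hom, below all Het and WT libraries, and Grik3 lies between 11.6 and 18.5 in Hom, above all WT libraries.

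The comparison of Hom with WT concerns loss of both Chd7 copies in P7 progenitors. Hom also carries Atoh1-Cre, which WT lacks, so Cre and the loss cannot be told apart. Grik2, Gria4 and Gria2, 3 of the 4 most abundant subunits, fell, and Grik3, a minor kainate subunit, rose. The other 5 genes did not pass the test. Calls were made with limma on log2(TPM + 1) at an adjusted p under 0.05, and all log2 changes are on that scale. Lower calls were made for 3 of 9 members against 1.41% of the 17325 genes tested, and higher calls for 1 of 9 against 1.27%. At an unadjusted p under 0.05 the counts were 4 lower against 6.42% and 2 higher against 8.51%. Each Hom library lay below the WT libraries of its batch for 3 members, against 3.56% of all genes, and above them for 1, against 5.44%. The median change of the 9 was -0.16 and their median absolute change was 0.57, against 0.024 and 0.13 over all genes tested.

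Gria2 encodes the subunit that sets the calcium permeability of AMPA receptors and lies at chr3:80681450-80802835 on the minus strand. Its TPM was 109, 127, 129, 82.2 and 87.5 in WT 1 to 5, 84.7, 112, 89.3, 68.7 and 81.7 in Het 1 to 5. In Hom 1 to 4 it was 62.2, 94.3, 64.4 and 58.7. Every Hom library was below every WT library of its own batch, but Hom 2 was above both WT libraries of batch 2. The mean fell from 107 ± 21.9 in WT to 69.9 ± 16.4 in Hom, and the change was -0.57 (SE 0.12, adjusted p 0.0211). In a bulk sample fewer cells of a type and less RNA per cell cannot be told apart, here and for the genes that follow. Gria2 also differed between the batches by -0.39 (SE 0.10, adjusted p 0.0194), and without the batch term its Hom change of -0.61 had an adjusted p of 0.112. The call was lost without WT 2 (adjusted p 0.0545), WT 3 (0.0575), Hom 1 (0.0671) or Hom 4 (0.0632), and without WT 1 to 3 and Het 3 the change was -0.47 (adjusted p 0.22).

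Gria4, the other main AMPA subunit of granule neurons, lies at chr9:4417896-4796234 on the minus strand. Its TPM was 63.0, 73.9, 69.9, 60.6 and 52.6 in WT, 44.9, 55.4, 49.99, 45.5 and 45.8 in Het, and 40.0, 42.9, 35.1 and 41.2 in Hom. All 4 Hom libraries were below all 5 WT libraries, and within each batch the order Hom, Het, WT held without overlap. The mean in Hom, 39.8 ± 3.34, was 0.622 of that in WT, and the change was -0.65 (SE 0.08, adjusted p 6.57e-04). It was called in each fit that left out 1 library, with changes between -0.70 and -0.61. Without WT 1 to 3 and Het 3 it was -0.56 (adjusted p 0.0668).

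Gria1, the AMPA subunit shared by many forebrain neurons and Bergmann glia, lies at chr11:57011387-57330244 on the plus strand. Its TPM was 29.9, 43.1, 21.0, 19.2 and 9.95 in WT, 11.3, 12.5, 23.4, 13.8 and 12.4 in Het, and 8.85, 6.25, 5.58 and 15.3 in Hom. It was the most variable member, with a WT SD of 12.5 on a mean of 24.6, and WT 5 lay below Hom 4 of the same batch. The change in Hom was -1.27 (SE 0.35, adjusted p 0.0832) and did not pass the test. It was -1.88 within batch 1 (adjusted p 0.0722) and -0.52 within batch 2 (adjusted p 0.605), a difference of 1.36 with an unadjusted p of 0.0597 and an adjusted p of 0.312. Without WT 5 the change was -1.54 (adjusted p 0.0318), and without Hom 4 it was -1.61 (adjusted p 0.0208).

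Markers of Bergmann glia and astrocytes moved with Gria1 across the libraries. Their summed TPM over 10 genes was 451 to 1964 in WT, 631 to 1228 in Het and 365 to 743 in Hom. All 10 marker genes had a change below 0 in Hom, with a median of -0.84. By limma 0 of the 10 were called and 7 were lower at an unadjusted p under 0.05, and none was at 0 in any library. Per 100 TPM of these markers Gria1 was 1.95 ± 0.262 TPM in WT, 1.79 ± 0.170 in Het and 1.54 ± 0.413 in Hom, with overlap between all groups. With the glial and Purkinje marker levels as terms in the fit, an alternative chosen after seeing the data, the Gria1 change in Hom was -0.22 (adjusted p 0.53). In that fit Gria4 changed by -0.48 (adjusted p 0.0186) and Gria2 by -0.57 (adjusted p 0.123).

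**Figure D2:**
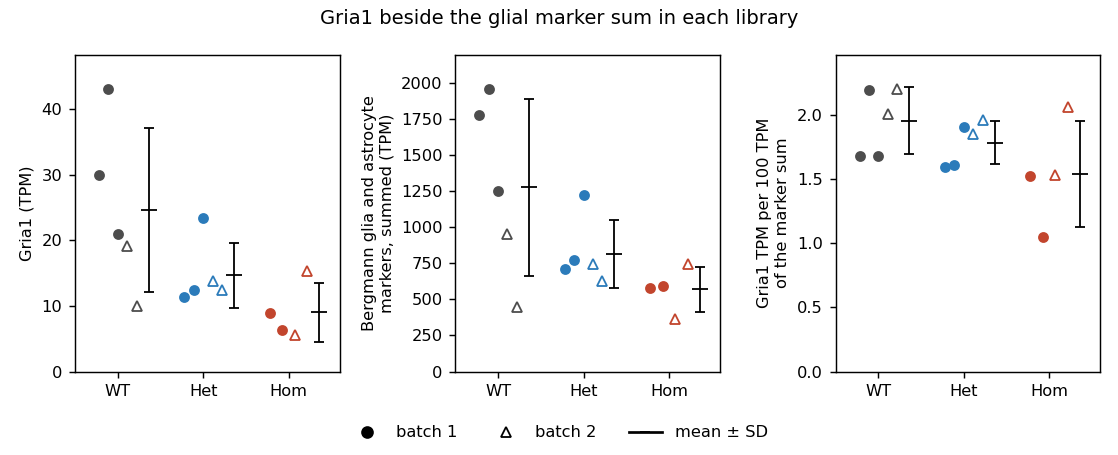
Gria1 TPM (left), summed TPM of 10 Bergmann glia and astrocyte markers (middle) and Gria1 TPM per 100 TPM of those markers (right) in each library, by genotype label and sequencing batch, with the mean ± SD. WT 2 is highest for both Gria1 and the markers, and over both batches the ratio on the right overlaps between the 3 groups. Within batch 1 the Hom ratios lie below the WT ratios.

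Gria3, an X-linked AMPA subunit (chrX:41400854-41678601, plus strand), showed no difference that passed the test. Its TPM was 10.2 to 14.5 in WT, 7.4 to 14.3 in Het and 7.4 to 17.4 in Hom. The change in Hom was -0.07 with a 95% interval from -0.60 to 0.46. The change of Gria2, -0.57, lies within that interval.

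Grik2, the principal channel-forming kainate subunit of granule cells, changed most clearly among the 9 genes. It lies at chr10:49094833-49788766 on the minus strand, and at 693.9 kb it is the longest of the 9, with 6 other loci annotated inside it on the same strand, 2 sense intronic and 4 of the unclassified type TEC. Its TPM was 81.6, 88.6, 98.9, 87.6 and 98.0 in WT, 63.4, 78.3, 58.4, 57.1 and 65.6 in Het, and 44.4, 47.3, 36.8 and 41.0 in Hom. The 3 groups did not overlap at all, in either batch or across both. The mean in Hom, 42.4 ± 4.54, was 0.466 of that in WT, and the change was -1.08 (SE 0.10, adjusted p 5.06e-05). It was -0.95 within batch 1 (adjusted p 0.0243) and -1.23 within batch 2 (adjusted p 0.0615), and -1.23 (adjusted p 0.00502) without WT 1 to 3 and Het 3. With the marker terms it was -1.19 (adjusted p 3.48e-04). Grik2 and Gria4 belong to the study's own list of lower genes, which was selected on these same libraries.

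Grik3, a channel-forming kainate subunit with low sensitivity to glutamate, moved the other way. It lies at chr4:125490700-125714173 on the plus strand. Its TPM was 6.62, 8.74, 6.98, 11.3 and 10.1 in WT, 7.08, 11.6, 8.49, 11.8 and 11.0 in Het, and 11.6, 18.5, 16.6 and 16.1 in Hom. All 4 Hom libraries were above all 5 WT libraries, whereas Het and WT overlapped. The mean in Hom, 15.7 ± 2.92, was 1.79 times that in WT, and the change was 0.75 (SE 0.15, adjusted p 0.0197). The call was lost without WT 3 (adjusted p 0.0534) or Hom 2 (0.0602), and without WT 1 to 3 and Het 3 the change was 0.61 (adjusted p 0.218). With the marker terms it was 0.81 (adjusted p 0.0321).

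The remaining kainate subunits did not pass the test in Hom. Grik1 (chr16:87895900-88290265, minus strand), the other low-affinity subunit, was between 2.6 and 5.15 TPM in all 14 libraries and changed by -0.16 (95% interval -0.53 to 0.22). Grik4 (chr9:42518135-42944493, minus strand), a high-affinity subunit, was 3.42 to 5.67 TPM in WT and 4.76 to 6.69 in Hom. Its change of 0.35 (SE 0.14) had an unadjusted p of 0.0298 and an adjusted p of 0.269. Grik5 (chr7:25009849-25072346, minus strand), the abundant high-affinity subunit and at 62.5 kb the shortest of the 9 genes, was 40.7 to 62.5 TPM in WT and 43.6 to 64.5 in Hom. Its change of -0.03 had a 95% interval from -0.21 to 0.15.

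**Figure D3:**
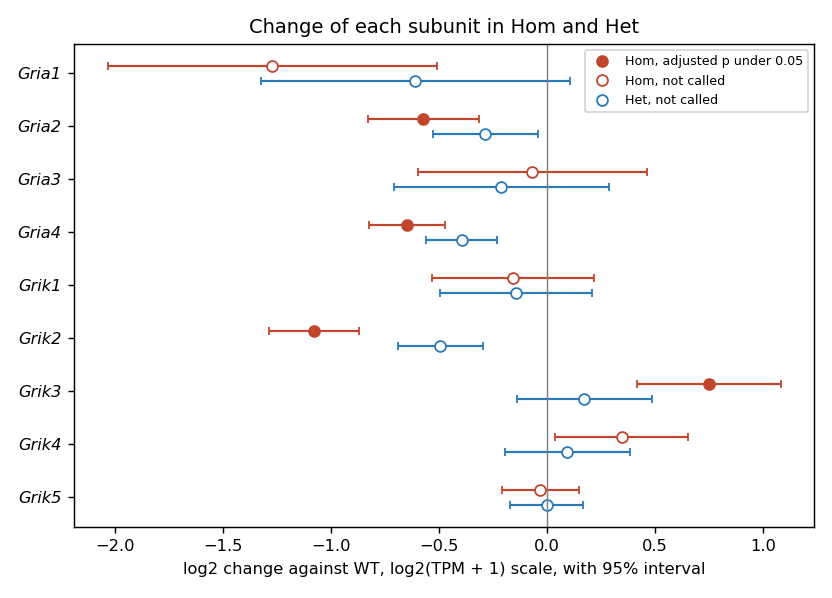
Log2 change of each subunit gene against WT on the log2(TPM + 1) scale in Hom (red) and Het (blue), with 95% intervals from limma and filled points where the adjusted p was under 0.05. Grik2 at -1.08, Gria4 at -0.65, Gria2 at -0.57 and Grik3 at 0.75 are the filled points, and Grik5 lies close to 0 in both.

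Some marker lists moved with the called subunits. Granule neuron markers summed to 2565 ± 343 TPM in WT, 2446 ± 80.1 in Het and 1933 ± 209 in Hom, and every Hom library was below every WT and Het library of its own batch. Of 8 granule neuron markers tested, 4 were called lower in Hom (Neurod1, Slc17a7, Reln and Tubb3) and 1 higher (Grin2c). Gabra6, a marker of mature granule neurons in this list, was not tested. Its TPM was 0.44 to 1.03 in WT 1 to 3 and Het 3, 0.2 or less elsewhere and 0 in Het 5. The progenitor list summed to 2932 ± 534 TPM in WT and 2872 ± 163 in Hom. By limma 1 of its 10 genes, Ccnd1, was called higher and 0 lower, and 3 had a change below 0. The 3 unipolar brush cell markers summed to 104 ± 19.9 TPM in WT and 156 ± 8.90 in Hom, and most of the sum was Otx2. Of the 2 tested, Otx2 was called higher (0.66, adjusted p 0.0206) and Eomes was not called (0.28, adjusted p 0.499). Lmx1a was at most 0.95 TPM, and none of the 3 was at 0. The part of these shifts in the subunit changes was not tested. By limma 0 genes were called in the other 6 lists. At an unadjusted p under 0.05, against 6.42% of all genes lower and 8.51% higher, red blood cell markers had 4 of 5 lower (median change -0.80) and endothelial and mural markers 3 of 6 higher (median change 1.31). Purkinje cell markers had 1 of 6 lower, oligodendrocyte lineage markers 2 of 7 higher, and interneuron and microglia markers 0.

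The comparison of Het with WT concerns loss of 1 copy. Het also carries Atoh1-Cre, which WT lacks, and is f/+ where WT is f/f. These differences cannot be told apart from the loss. No subunit gene passed the adjusted test (0 of 9, against 0% of all genes called lower and 0.00577% called higher by limma). Before adjustment 3 members, Grik2, Gria4 and Gria2, were lower at a p under 0.05, against 2.88% of all genes, and 0 were higher, against 3.2%. Het and Hom are set against the same 5 WT libraries, so these are not separate observations of the same 3 genes.

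Grik2 was 64.6 ± 8.45 TPM in Het, with all 5 libraries below all 5 WT libraries, and its change of -0.49 (SE 0.09) had an unadjusted p of 1.09e-04 and an adjusted p of 0.134. Gria4 was 48.3 ± 4.42 TPM, with a change of -0.39 (SE 0.08, unadjusted p 1.77e-04, adjusted p 0.161). Within each batch the Het libraries lay wholly below the WT libraries for these 2 members, against 1.09% of all genes, and wholly above them for 0, against 1.43%. Gria2 changed by -0.28 (SE 0.11, unadjusted p 0.0249, adjusted p 0.728), and its Het and WT libraries overlapped. Grik3 changed by 0.17 (95% interval -0.14 to 0.49) and Gria1 by -0.61 (95% interval -1.33 to 0.11). Without Het 2 the Grik2 change was -0.56 (adjusted p 0.0324).

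Hom was also set against Het, the step from 1 copy to none with Atoh1-Cre in both. Grik2 fell further, by 0.58 on the log2 scale (SE 0.10, adjusted p 0.0195), as 1 of 9 members called lower against 0.277% of all genes. The other changes did not pass: Gria4 changed by -0.25 (adjusted p 0.375), Gria2 by -0.29 (adjusted p 0.724) and Grik3 by 0.57 (adjusted p 0.196). Hom libraries lay below all Het libraries of their batch for Grik2 and Gria4, against 2.23% of all genes, and above them for Grik4, against 2.4%. The Grik2 call was lost without Het 5 (adjusted p 0.0599), Hom 1 (0.0673), Hom 3 (0.0549) or Hom 4 (0.0596), with changes between -0.63 and -0.52.

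The genotypes were also compared by rank, with an exact Kruskal-Wallis test on values cleared of the batch term. Grik2 gave p = 2.38e-05, the smallest that its 252252 arrangements allow, and Gria4 gave p = 5.55e-05 by the same exact test. Gria2 (exact p = 0.00418) and Grik3 (exact p = 0.00538) were also under 0.01. Of all genes, 2.22% passed this threshold with a lower and 2.42% with a higher Hom mean. Grik4 (exact p = 0.0154) and Gria1 (exact p = 0.023) were above it, and Grik1, Gria3 and Grik5 were between 0.547 and 0.97.

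The balance of subunits was described as the share of each gene in the summed TPM of its family, with no test, since a share is a score over the members. Within the AMPA family the sum fell while the mean shares of the main subunits stayed close. The 4 genes summed to 208 ± 40.8 TPM in WT, 161 ± 22.2 in Het and 131 ± 21.0 in Hom, and both mutant groups lay below the WT libraries of their own batch. Gria2 held 51.5 ± 3.54% in WT, 54.0 ± 3.37% in Het and 53.1 ± 5.99% in Hom. Gria4 held 31.1 ± 2.56%, 30.2 ± 1.72% and 30.7 ± 2.98%. These shares of the main AMPA subunits overlapped between all 3 groups.

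The minor AMPA subunits shifted more. Gria1 held 11.4 ± 4.10% in WT and 6.997 ± 3.51% in Hom, with overlap, and in batch 2 alone the difference was -0.289 percentage points. Gria3 held 5.98 ± 0.794% in WT and 9.18 ± 2.52% in Hom, with every Hom library above the WT libraries of its own batch. The Gria3 TPM itself was 12.3 ± 4.80 in Hom, level with WT, while the family sum was lower.

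The kainate family changed in composition as well as in sum. The sum was 159 ± 14.3 TPM in WT, 134 ± 11.3 in Het and 119 ± 7.01 in Hom, and all Hom libraries were below all WT libraries. Grik2 held 59.7%, 56.3%, 62.0%, 51.3% and 56.9% in WT 1 to 5, 51.9%, 53.5%, 47.2%, 43.4% and 45.5% in Het, and 40.2%, 40.1%, 28.8% and 34.5% in Hom. Grik2 was thus over 50% of the kainate total in every WT library and under it in every Hom library. Grik3 rose in share from 5.46 ± 0.885% in WT to 7.44 ± 1.19% in Het and 13.2 ± 2.12% in Hom, without overlap between Hom and either other group.

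The ratio of Grik2 to Grik3 was 10.8 ± 2.49 in WT, 6.67 ± 1.51 in Het and 2.78 ± 0.714 in Hom. The high-affinity pair Grik4 and Grik5 held 34.7 ± 3.504% of the kainate total in WT, 41.5 ± 3.39% in Het and 47.9 ± 5.83% in Hom. Most of that share was Grik5, whose TPM was 51.3 ± 8.81 in WT and 51.4 ± 9.24 in Hom, and whose share was 32.0 ± 3.16%, 38.1 ± 2.76% and 43.1 ± 5.64%. Grik2 stood above Grik5 by a ratio of 1.81 ± 0.295 in WT, and the ratio was 0.854 ± 0.221 in Hom. In the order of mean levels Grik5 stood behind Gria2, Grik2 and Gria4 in WT and directly behind Gria2 in Hom. Grik5 exceeded Grik2 in 3 of 4 Hom libraries, and their ranges overlapped. The ratio of the summed AMPA to the summed kainate subunits was 1.32 ± 0.325 in WT, 1.21 ± 0.151 in Het and 1.11 ± 0.193 in Hom, with overlap. This order held in batch 1 only, with means of 1.56 in WT, 1.31 in Het and 1.22 in Hom. In batch 2 the means were 0.976 in WT, 1.06 in Het and 0.997 in Hom.

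**Figure D4:**
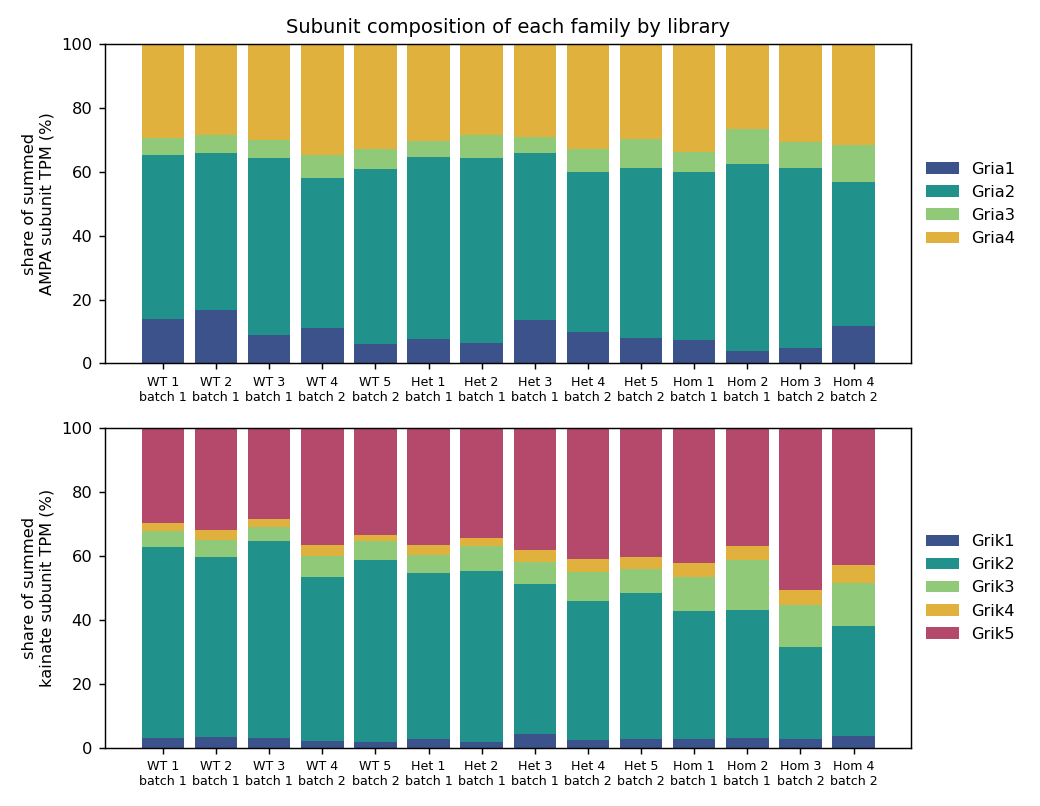
Share of each subunit in the summed TPM (percent) of the AMPA family (upper) and the kainate family (lower) in each of the 14 libraries. The Gria2 and Gria4 bands keep a similar width across genotypes, whereas the Grik2 band narrows from 51.3% or more in WT to 40.2% or less in Hom.

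Some members also differed between the sequencing batches. From batch 1 to batch 2 Gria2 (-0.39) and Grik5 (0.32, SE 0.07, adjusted p 0.00836) were called, 2 of 9 members against 13.5% of all genes. The effect of Hom did not differ between batches by a passing test for any member (0 of 9 by limma, against 0.0115% of all genes, and 0 of 9 at an unadjusted p under 0.05). Within batch 1 and batch 2 the Hom changes were -0.72 and -0.56 for Gria4, -0.66 and -0.46 for Gria2, and 0.90 and 0.57 for Grik3. The batch 2 fit called 4 genes lower and 0 higher of 17325 in all, and 0 of the 9 members by limma, though Grik2, Gria4, Gria2 and Grik3 had an unadjusted p under 0.05 in each batch alone.

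Receptor levels at the synapse also depend on auxiliary subunits, scaffolds and enzymes, and a list of 41 such partner genes was examined. Of these, 40 were found in the table by symbol and 38 were tested. In Hom 4 of 38 were called lower and 2 higher, against 1.41% and 1.27% of all genes, and the median change of the list was -0.03. In Het 0 of 38 were called by limma, and 2 lower genes and 2 higher ones had an unadjusted p under 0.05.

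The 6 genes of the TARP group (Cacng2 to Cacng5, Cacng7 and Cacng8), which bind AMPA receptors, held 0 called genes in Hom by limma, with 2 higher at an unadjusted p under 0.05. Among the 9 other AMPA auxiliary genes 3 were called. Gsg1l, which suppresses AMPA currents, was 45.6 to 61.1 TPM in WT, 50.5 to 73.6 in Het and 75.6 to 92.1 in Hom. It rose by 0.69 (SE 0.11, adjusted p 0.0032), with all Hom libraries above all WT and Het libraries. Without WT 1 to 3 and Het 3 its change was 0.53 (adjusted p 0.136), and with the marker terms 0.59 (adjusted p 0.0694). Within batch 1 the Gsg1l change was 0.84 (adjusted p 0.0615) and within batch 2 it was 0.51 (adjusted p 0.197).

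Syndig1, a synapse differentiation protein that binds AMPA receptors, was 8.52 to 11.0 TPM in WT and 4.15 to 5.52 in Hom, and changed by -0.86 (SE 0.13, adjusted p 0.00352). Without WT 1 to 3 and Het 3 the Syndig1 change was -0.59 (adjusted p 0.126). Cnih2, a cornichon that aids AMPA receptor export, changed by -0.32 (SE 0.07, adjusted p 0.0269), and Cnih2 was among the 4 most abundant partners with 67.6 ± 17.9 TPM in WT. Of the 14 fits with 1 library left out, 7 did not call Cnih2, those without WT 2, WT 3, WT 4, WT 5, Hom 1, Hom 2 or Hom 4, with changes between -0.32 and -0.29 and adjusted p of up to 0.0892. Cnih2 also differed between the batches by 0.56 (adjusted p 2.49e-04). Its Hom change had an adjusted p of 0.681 without the batch term and 0.0742 with the marker terms. Without WT 1 to 3 and Het 3 the Cnih2 change was -0.40 (adjusted p 0.0989). With Het 3 placed in batch 2 it was -0.32 (adjusted p 0.163).

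Of the 7 scaffolds only Dlg2, a PSD-95 relative that anchors receptors after the synapse, was called. Dlg2 was 38.8 to 47.3 TPM in WT, 35.9 to 42.2 in Het and 23.5 to 28.7 in Hom, with a change of -0.63 (SE 0.08, adjusted p 6.26e-04) against WT and -0.49 (adjusted p 0.0162) against Het. Dlg4, which encodes PSD-95 itself, was 89.7 ± 2.90 TPM in WT and changed by -0.26 (adjusted p 0.144).

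Of the 3 neuronal pentraxins, secreted or membrane proteins that cluster AMPA receptors from outside the cell, 1 was called lower and 1 higher, and Nptx2 was not called (-0.21, adjusted p 0.719). Nptxr was 29.0 to 55.7 TPM in WT, 26.6 to 36.7 in Het and 17.4 to 22.9 in Hom, and fell by 0.85 on the log2 scale against WT (SE 0.11, adjusted p 6.26e-04) and by 0.62 against Het (adjusted p 0.0226). Nptx1 was 3.63 to 6.39 TPM in WT and 5.91 to 9.71 in Hom, and rose by 0.61 (SE 0.14, adjusted p 0.0385). Nptx1 was not called in 8 of those 14 fits, the ones without WT 1, WT 3, WT 4, Het 1 or any 1 of the 4 Hom libraries, with changes between 0.53 and 0.66 and adjusted p of up to 0.119. Its adjusted p was 0.127 without the batch term, 0.213 with the marker terms and 0.0829 with only 2 genotypes in the fit. Without WT 1 to 3 and Het 3 the Nptx1 change was 0.62 (adjusted p 0.175). With Het 3 placed in batch 2 it was 0.62 (adjusted p 0.089).

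Partners of kainate receptors held 0 called genes of 4 tested by limma, and 1 higher gene had an unadjusted p under 0.05. Assembly and trafficking genes also held 0 of 6, and 1 lower gene and 1 higher one met the unadjusted limit. Klhl24, which binds the Grik2 protein, was 66.7 ± 4.58 TPM in WT and changed by -0.12 (adjusted p 0.599). Porcn, an AMPA receptor assembly factor as well as a Wnt acyltransferase, was the most abundant partner at 101 ± 7.96 TPM and changed by -0.32 (adjusted p 0.131). Without Hom 3, the highest Hom library, the Porcn change was -0.44 (adjusted p 0.00672).

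The 3 RNA editing genes Adar, Adarb1 and Adarb2 held 0 called genes by limma, and 0 at an unadjusted p under 0.05. Adarb1 encodes ADAR2, the enzyme that edits the Q/R codon of Gria2 printed above. Adarb1 was 40.7 to 60.1 TPM in WT, 42.5 to 51.3 in Het and 34.7 to 50.02 in Hom, with overlap between all groups and a change of -0.25 (SE 0.12, adjusted p 0.359).

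**Figure D5:**
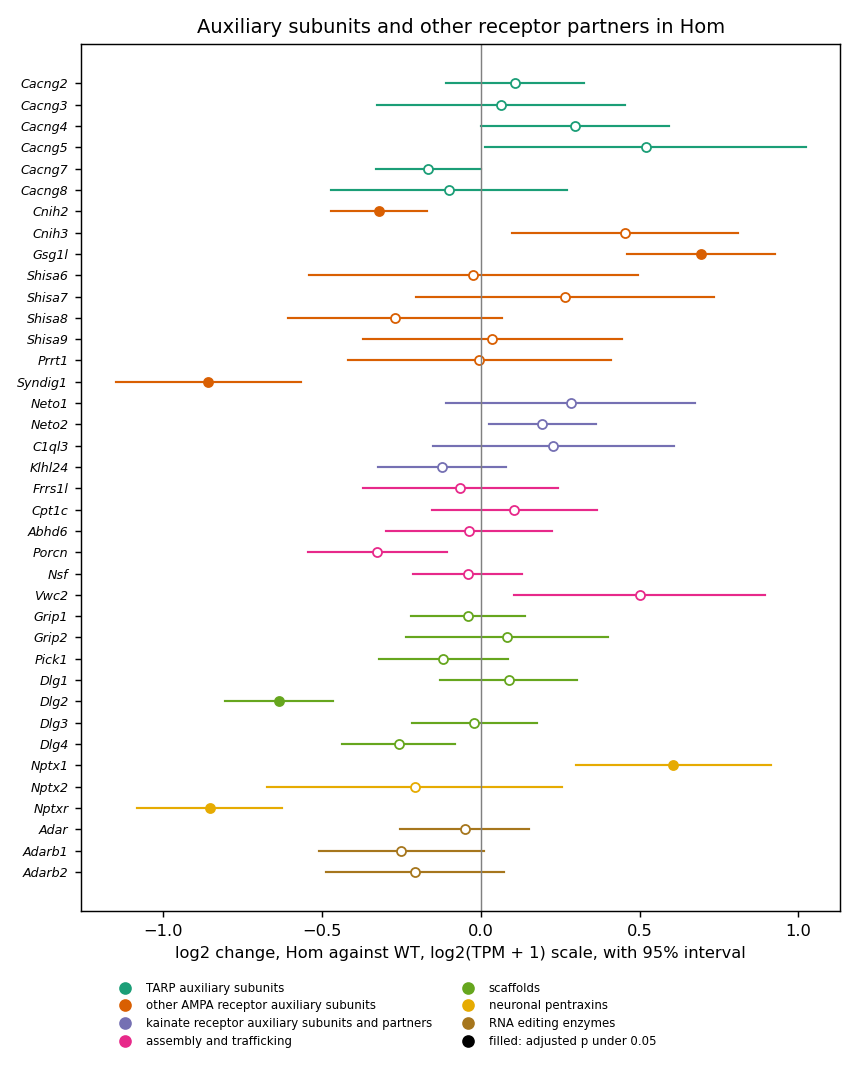
Log2 change in Hom against WT on the log2(TPM + 1) scale for the 38 tested partner genes, coloured by role, with 95% intervals from limma and filled points where the adjusted p was under 0.05. The 6 filled points are Cnih2, Syndig1, Dlg2 and Nptxr below 0 and Gsg1l and Nptx1 above 0.

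The promoters of the 4 called subunits are shown because these genes moved with genotype, 3 down and 1 up. RefSeq promoter windows matched 6 of the 9 genes. Each line gives 270 bases, 250 before and 20 after the start of transcription, 5′ to 3′ on the strand of the gene (GRCm38.p6), with any E-box in capitals. An E-box, CANNTG, is the core motif bound by basic helix-loop-helix factors such as Atoh1 and Neurod1, and reads the same on both strands as a pattern.
Gria2: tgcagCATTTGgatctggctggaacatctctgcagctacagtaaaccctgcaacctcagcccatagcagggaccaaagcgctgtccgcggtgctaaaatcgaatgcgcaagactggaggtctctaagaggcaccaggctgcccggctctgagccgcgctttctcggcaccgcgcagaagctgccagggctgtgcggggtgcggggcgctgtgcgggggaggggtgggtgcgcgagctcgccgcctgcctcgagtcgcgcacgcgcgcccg
Gria4: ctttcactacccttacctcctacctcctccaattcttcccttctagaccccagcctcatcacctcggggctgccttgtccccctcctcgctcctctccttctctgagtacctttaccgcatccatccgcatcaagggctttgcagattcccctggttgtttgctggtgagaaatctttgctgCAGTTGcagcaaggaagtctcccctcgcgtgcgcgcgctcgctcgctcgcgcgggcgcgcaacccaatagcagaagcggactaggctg
Grik2: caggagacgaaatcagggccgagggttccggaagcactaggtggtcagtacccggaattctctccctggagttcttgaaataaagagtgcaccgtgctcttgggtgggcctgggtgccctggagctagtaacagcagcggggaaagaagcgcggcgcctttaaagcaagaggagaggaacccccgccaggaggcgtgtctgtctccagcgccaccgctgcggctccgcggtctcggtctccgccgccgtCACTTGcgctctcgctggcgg
Grik3: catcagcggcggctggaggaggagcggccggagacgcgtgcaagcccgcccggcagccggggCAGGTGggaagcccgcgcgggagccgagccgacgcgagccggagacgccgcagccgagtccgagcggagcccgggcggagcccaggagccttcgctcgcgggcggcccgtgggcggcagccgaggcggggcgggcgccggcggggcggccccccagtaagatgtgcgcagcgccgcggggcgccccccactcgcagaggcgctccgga
The windows lie at chr3:80802816-80803085 (minus strand) for Gria2, chr9:4796215-4796484 (minus strand) for Gria4, chr10:49788735-49789004 (minus strand) for Grik2 and chr4:125490446-125490715 (plus strand) for Grik3. Each of the 4 held 1 E-box, CATTTG from base -245 in Gria2, CAGTTG from base -68 in Gria4, CACTTG from base -1 in Grik2 and CAGGTG from base -188 in Grik3. The windows of Grik4 and Grik5, which were not called, held 0. Of 32851 RefSeq promoters of the same length 68.9% held at least 1. The forms CAGCTG and CATCTG, which are also E-boxes and stand in 14.2% and 15.6% of promoters, were in none of the 6. The SP1 motif GGGCGG, searched on both strands, occurred 6 times in Grik3 and in none of the Gria2, Gria4 and Grik2 windows, against 34.1% of promoters with at least 1. It occurred once in Grik4 and 2 times in Grik5. GC content was 81.1% in Grik3, 66.3% in Gria2, 63.3% in Grik2 and 58.9% in Gria4, and 69.3% in Grik4 and 73.3% in Grik5, with a median of 52.6% over all promoters. A match of letters is a description and not a site of binding, and no binding was measured in these files.

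For each called subunit the genes with the most similar profile were sought among all genes tested. The measure was the root mean square difference of log2(TPM + 1) over the 14 libraries, each gene centred on its mean within each batch. Nearest to Grik2 were Reln at 0.0954, the secreted glycoprotein that guides Purkinje cell placement, and Pdgfc at 0.104, a growth factor, where Grik2's own spread was 0.446 and the median over all genes 0.494. Reln changed in Hom by -0.99 (adjusted p 6.26e-04) and Pdgfc by -1.03 (adjusted p 1.11e-04). Nearest to Gria4 were Dtna at 0.114, a dystrobrevin, and Ptprk at 0.114, a receptor tyrosine phosphatase, with a median of 0.344. Nearest to Gria2 were Tes at 0.125 and Ackr1 at 0.134, with a median of 0.339. Nearest to Grik3 were Dscaml1 at 0.110 and Lpin2 at 0.128, with a median of 0.402. The own spread of Gria4 was 0.281, of Gria2 0.280 and of Grik3 0.366. In Hom Dtna (-0.53, adjusted p 0.0231), Ptprk (-0.61, adjusted p 0.0052) and Lpin2 (0.54, adjusted p 0.0209) were called. Tes (-0.54, adjusted p 0.0598), Ackr1 (-0.34, adjusted p 0.0835) and Dscaml1 (0.64, adjusted p 0.0779) were not. Likeness was measured over all genotypes, so these genes share the direction of the subunit in Hom by choice.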

How the data were processed

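Reads (Illumina TruSeq total RNA, single-end) were aligned by the authors with Bowtie 1.0.0 to Ensembl transcripts of mm10, and RSEM 1.2.15 gave the deposited gene-level TPM values. TPM keeps no read depth, so counting errors are unknown, and a rise in abundant genes lowers all others. Isoforms and editing are not resolved. Columns headed Con were taken as WT. Batches follow the study's methods.

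Values were analysed as log2(TPM + 1) for genes at TPM of at least 1 in at least 4 of 14 libraries. limma 3.58.1 in R 4.3.3 (eBayes with trend) was fitted to all libraries with genotype and batch as terms, two-sided, with Benjamini-Hochberg adjustment over 17325 genes and a threshold of 0.05. ComBat, which the study used, was not run. The exact Kruskal-Wallis test used values from limma's removeBatchEffect, so it ignores that a batch effect was estimated. Scripts were tested on simulated data. Subunits, partners and markers were chosen with earlier results of these data known. Named were the 9 subunits, each partner called in any contrast, the 4 partners with the highest WT level, and for each subunit called in Hom the 2 most similar genes; individual marker genes were named after their values were seen. Positions come from GENCODE (GRCm38), and 40254 of 41381 IDs matched a symbol. The labels do not say that libraries came from separate litters, so p-values measure the spread between these libraries. Alternatives changed the pseudocount (0.1, 0.5), low-value filter (none, or mean TPM of at least 5), scaling (median-ratio, quantile), batch term, array weights, replicate block, genotypes in the fit, the batch of Het 3 (labelled like the later samples) and each library left out.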

Additional observations from a re-analysis of the deposited data

Results flagged for a closer look

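A library was looked for that stood far from the others of its group in each of the 27 combinations of a subunit and a genotype, by the gap to its nearest neighbour as a share of the group's range. Chance marks about 1 in 20 such groups, and 2 of 27 were marked. For Gria1, Het 3 was highest at 23.4 TPM against 11.3 to 13.8 in the other Het libraries, with a gap of 0.794 of the range. Het 3 also had the highest Bergmann glia and astrocyte marker sum of the Het libraries, 1228 TPM against 631 to 772, and the part of these cells in the Gria1 value was not tested. For Gria2, Hom 2 was highest at 94.3 TPM against 58.7 to 64.4, with a gap of 0.84 of the range.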

How the results depend on the processing

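The depth of each library is unknown. TPM from 4 to 5 libraries a group limits what can be called, and a call needs an adjusted p over all genes. Of the alternatives run for the log2 change of single genes, 931 values kept direction and call, 70 lost and 8 gained a call, and 38 changed sign, mostly for Gria3, Grik1 and Grik5, which were never called. The cause of these moves was not tested, other than that fits of 1 batch or fewer genotypes hold fewer libraries.

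For Hom against WT, 3 subunits were called lower and 1 higher, against 245 and 220 of the 17325 genes tested. The lower count was 0 in batch 2 alone, where 4 of all genes were called lower. It was 1 without WT 1 to 3 and Het 3 (109 of all genes). With 1 library left out it was 2 to 4 (147 to 248 of all genes). The higher count was 0 in batch 1 alone (83 of all genes) and in batch 2 alone (0 of all genes). It was also 0 with only 2 genotypes in the fit (136) and without WT 1 to 3 and Het 3 (59). With 1 library left out it was 0 to 1 (137 to 241 of all genes). With only 2 genotypes Gria2 (adjusted p 0.0582) and Grik3 (adjusted p 0.0524) were not called. For Het against WT the lower count of 0 became 1 with array weights (Gria4, -0.46, adjusted p 0.0457), where 5 of all genes were called lower. It was 1 with the marker terms (Grik2, -0.63, adjusted p 0.0271), where 14 were. With 1 library left out it was 0 to 1, against 0 to 6 of all genes. For Hom against Het the lower count of 1 stood beside 48 of all genes. It became 0 in batch 1 alone (7 of all genes), in batch 2 alone (2) and with the marker terms (20). It was also 0 with only 2 genotypes (27) and with the replicate block (10). With 1 library left out it was 0 to 1, against 19 to 48 of all genes.

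After genotype and batch were fitted, the 13 same-numbered pairs of libraries had correlations of -0.235 to 0.264, and 3 were over 0.1. Different-numbered pairs were not compared, so whether replicate numbers pair the libraries was not tested. With the replicate block, Hom calls over all genes were 144 lower and 115 higher against 245 and 220. The members kept 3 lower and 1 higher, but Syndig1 (adjusted p 0.0591), Cnih2 (0.0957) and Nptx1 (0.0652) were not called, Porcn was (0.0187), and Grik2 in Hom against Het was not (-0.51, adjusted p 0.13).

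In the balance, the Gria1 share differed by -0.289 percentage points in batch 2 alone (Hom minus WT) and the Gria4 share by -3.39 without WT 1 to 3 and Het 3 (Het minus WT). The Grik1 share (Hom minus WT) differed by -0.27 in batch 1, 1.24 in batch 2 and 1.06 without those libraries.

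Sign changes for Hom against WT were: Gria3 0.057 in batch 2, 0.033 with the replicate block, 0.26 with the marker terms and 0.088 without WT 1 to 3 and Het 3; Grik1 0.17 in batch 2, 0.13 with the marker terms and 0.18 without those libraries; Grik5 0.0022 with no batch term; Klhl24 0.091 in batch 1. For Het against WT they were Gria1 0.0037 with the marker terms, Gria3 0.049 in batch 2 and 0.017 without those libraries, Grik1 0.10 in batch 2, 0.14 with the marker terms and 0.095 without those libraries, and Grik5 0.061 in batch 1. For Hom against Het they were Grik1 0.074 in batch 2, 0.042 with the replicate block and 0.083 without those libraries, and Grik5 0.0037 with no batch term, 0.028 in batch 2 and 0.033 with Het 3 in batch 2. With 1 library left out, changes ran from -0.29 to 0.15 for Gria3 and -0.092 to 0.027 for Grik5 in Hom against WT, from -0.0067 to 0.17 for Grik4 and -0.049 to 0.029 for Grik5 in Het against WT, and from -0.080 to 0.36 for Gria3, -0.11 to 0.083 for Grik1 and -0.090 to 0.028 for Grik5 in Hom against Het.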
